A study of Mus musculus with 8 samples.

Results

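The proteasome is the barrel-shaped protease that degrades ubiquitin-tagged proteins, and the genes of its subunits, activators and assembly chaperones were followed here in mouse blood stem and progenitor cells with and without Asxl2. Members were the protein-coding genes whose symbols begin with Psma to Psmg followed by a number. That rule found 50 of the 47311 genes matched to the annotation. Psmc3ip, a recombination gene that shares the lettering only, was set apart, which left 49 members. The 3 immunoproteasome subunits Psmb8, Psmb9 and Psmb10 were read as a group of their own.

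LSK cells, the marrow fraction that lacks lineage markers and carries Sca1 and Kit, were taken from 8 mice, and their polyA RNA was amplified with a SMART-Seq low-input kit. LSK cells include the blood stem cells and the multipotent progenitors next to them. The groups were old Asxl2 knockout (KO), young KO, old wild type (WT) and young WT, with 2 mice each. Old mice were over 1 year old and young mice 8 to 12 weeks. No treatment was given in the labels. The labels do not say how the allele was made or in which cells Asxl2 was lost. Mice were paired in 4 litters, each with 1 KO and 1 WT littermate handled in 1 batch, and the 2 mice of a group came from different batches.

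The barrel, or 20S core, is a stack of rings of alpha and beta subunits, in which 3 beta subunits (Psmb5, Psmb6 and Psmb7) cut peptides. The 19S cap unfolds and feeds in ubiquitin-tagged proteins with its ATPases, and its other subunits recognise and remove ubiquitin. In cells of the blood lineage and under interferon, Psmb8, Psmb9 and Psmb10 replace the constitutive catalytic subunits and favour peptides that fit MHC class I molecules. The transcription factor Nfe2l1 raises most subunit genes together when proteasome activity is short.

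Library totals ran from 45737972 to 80388500 estimated counts, and 26237 to 36175 genes were detected. Transcripts not annotated as protein coding took 11.5% and 11.8% of the counts in old KO and 11.2% and 8.53% in young KO mice, against 10.47% and 11.6% in old WT and 10% and 8.43% in young WT mice. The share was higher in the KO mouse of every litter. With it as a covariate 0 of the 49 members passed in the KO or the age comparison below, where 0.094% and 0.00391% of all genes did. The estimates themselves rose for some members and fell for others. In old mice alone, log2 changes in KO without and with the covariate were 0.86 and 0.88 for Psmb3 and 0.71 and 0.77 for Psmb7. They were 0.72 and 0.63 for Psme2 and 0.62 and 0.46 for Psmb9. Asxl2 (mm10 chromosome 12, 3426857 to 3506852) had 5.34 and 4.99 TPM in old KO mice and 4.63 and 5.63 TPM in young KO mice, against 30.0 and 23.0 TPM in old WT mice and 30.8 and 23.7 TPM in young WT mice. TPM is kallisto's abundance scaled for transcript length and library depth, summed over the transcripts of a gene. Every KO library was far below every WT library, with a log2 change of -2.10 ± 0.17 (SE) and an adjusted p of 0.000408 by edgeR. The old pair of litter 1 (replicate 1 of old KO and of old WT) stood apart in Xist, which had 3.33 TPM in the KO mouse and 3.61 TPM in its WT littermate and at most 0.061 TPM in the other 6 libraries. Of 6 LSK markers, 1 was higher and 3 were lower in KO by edgeR, and their summed level was 1275 to 1605 TPM in KO and 1477 to 2441 TPM in WT libraries. Of 6 erythroid markers, 5 were lower in KO, with sums of 81.4 to 469 TPM in KO and 226 to 742 TPM in WT libraries. Of 6 markers of macrophages, monocytes and dendritic cells, 1 was higher in KO. Their sums were 410 to 1726 TPM in KO and 503 to 1907 TPM in WT libraries. The part of these shifts in the results below was not tested, and in RNA of whole sorts fewer cells of a type and less RNA per cell cannot be told apart.

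The promoter sequences of 3 members are shown because they carry the comparisons below: Psmb9 shares its start region with the divergent gene Tap1, Psmb3 had the largest rise in KO among the barrel subunits that passed, and Psmd2 was the subunit that fell with age. Each window runs from 250 bases before to 50 bases after the gene's start, 5′ to 3′ on the gene's strand, from RefSeq on GRCm38.p6, the mm10 assembly. Capitals mark matches to TGANNNNGC, the antioxidant response type element that Nfe2l1 and Nfe2l2 bind, and to CCAAT, the NF-Y element (ATTGG where it lies on the other strand).
Psmb9, chr17:34187281-34187580, minus strand: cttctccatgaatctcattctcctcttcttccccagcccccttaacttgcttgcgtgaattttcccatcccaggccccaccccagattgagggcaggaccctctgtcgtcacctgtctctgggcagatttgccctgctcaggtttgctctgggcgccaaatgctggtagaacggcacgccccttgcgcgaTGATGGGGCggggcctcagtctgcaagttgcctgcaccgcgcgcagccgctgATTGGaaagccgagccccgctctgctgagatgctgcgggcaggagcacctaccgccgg
Psmb3, chr11:97703184-97703483, plus strand: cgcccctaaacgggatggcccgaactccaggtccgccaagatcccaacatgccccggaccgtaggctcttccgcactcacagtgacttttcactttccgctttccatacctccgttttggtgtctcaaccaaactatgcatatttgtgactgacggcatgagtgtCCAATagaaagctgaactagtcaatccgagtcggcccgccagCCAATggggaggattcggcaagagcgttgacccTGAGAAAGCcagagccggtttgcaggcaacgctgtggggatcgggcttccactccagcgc
Psmd2, chr16:20651402-20651701, plus strand: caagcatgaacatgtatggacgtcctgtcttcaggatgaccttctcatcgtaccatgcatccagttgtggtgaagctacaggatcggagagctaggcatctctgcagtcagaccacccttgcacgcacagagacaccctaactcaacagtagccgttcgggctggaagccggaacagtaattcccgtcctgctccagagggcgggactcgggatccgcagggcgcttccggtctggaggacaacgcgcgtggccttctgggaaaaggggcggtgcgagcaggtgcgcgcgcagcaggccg

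A window was found for 41 of the 49 members. TGANNNNGC, searched on both strands, stood in 23 of the 41, or 56.1%, against 45.0% of the 27025 genes in the table. CCAAT on either strand stood in 14 of the 41, or 34.1%, against 41.1% of genes. The Psmb9 window had 1 match of each, the Psmb3 window had 1 TGANNNNGC and 2 CCAAT matches, and the Psmd2 window had none. Of the 7 members with a window that rose in KO, described next, 5 held TGANNNNGC and 3 held CCAAT. A match is a description of letters and not a shown binding site.

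The first question was whether proteasome RNA differed between KO and WT LSK cells over both ages. The 49 members together took 1.47% ± 0.07 of TPM in KO and 1.26% ± 0.12 in WT libraries (SD, n = 4 each). Their sum was 15513 and 15095 TPM in old KO mice and 14228 and 14097 TPM in young KO mice, against 13333 and 12767 TPM in old WT mice and 10874 and 13391 TPM in young WT mice. The KO sums all lay above the WT sums, and the lowest of the 8 was young WT replicate 1.

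By edgeR's quasi-likelihood test on counts, 9 of the 49 members rose in KO and 0 fell, at an adjusted p below 0.05. Over all 25543 genes tested, 3.19% rose and 6.78% fell. The members' median log2 change was 0.36, against 0.10 over all genes, and 41 of 49 were above 0. The 9 that rose were the assembly chaperones Psmg4 and Psmg3, the beta subunits Psmb3, Psmb7, Psmb5 and Psmb1, the activator subunit Psme2, and the alpha subunits Psma2 and Psma6. Their log2 changes ran from 0.48 for Psma6 to 0.78 for Psmg4, with adjusted p between 0.031 and 0.046. With each KO mouse set against its WT littermate, 23 members had more TPM in KO in every litter and 4 had less, or 46.9% and 8.16%, against 12.3% and 24.2% of all genes tested.

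**Figure D1:**
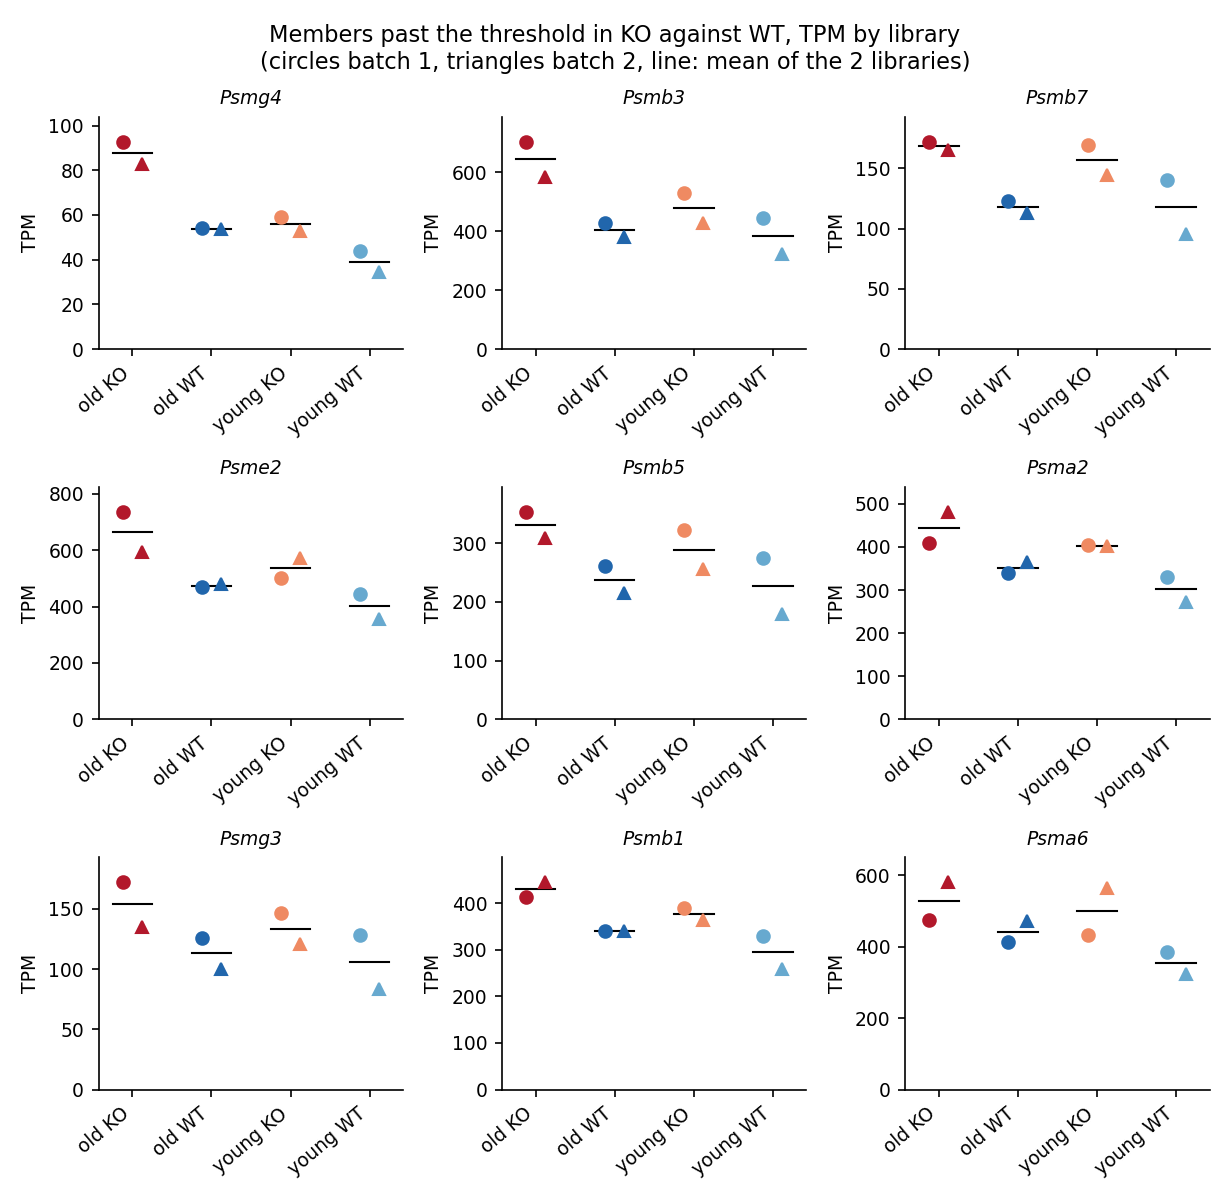
TPM by library (vertical axes, from 0) for the 9 members that rose in KO, with old KO, old WT, young KO and young WT from left to right. Each point is 1 mouse, circles are batch 1 and triangles batch 2, and the line is the mean of the 2 mice. At each age both KO mice were above both WT mice for Psma2, Psmb1, Psmb7, Psme2 and Psmg4, whereas young KO and young WT overlapped for Psmb3, Psmb5 and Psmg3.

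The change was uneven along the complex. All 7 constitutive beta subunits were above 0, with a median of 0.52, and 4 of them passed. All 8 alpha members were above 0, with a median of 0.39, and 2 passed. After the length correction described below, 6 of the 7 beta and 7 of the 8 alpha members were above 0. The 6 ATPases of the cap had a median of 0.24 and the 14 Psmd members a median of 0.17, and 0 passed in either group. Of these 20 cap members, 6 had an unadjusted p below 0.05, where 29.1% of all genes did. The lowest adjusted p among them was 0.069 for Psmd8 by edgeR.

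In the beta ring, Psmb3 (mm10 chromosome 11, 97703399 to 97713500), which builds the ring and does not cut, had 704 and 583 TPM in old KO and 427 and 531 TPM in young KO mice, against 428 and 381 TPM in old WT and 322 and 444 TPM in young WT mice. Old KO mice were highest, and young KO and young WT mice overlapped. The log2 change was 0.63 ± 0.15 (SE), with an adjusted p of 0.031 by edgeR. Psmb7 (chromosome 2, 38588036 to 38644087), the subunit with trypsin-like activity, had 172 and 165 TPM in old KO and 144 and 169 TPM in young KO mice, against 122 and 113 TPM in old WT and 95.6 and 140 TPM in young WT mice. No WT library reached the lowest KO library, and the log2 change was 0.61 ± 0.15 (SE, adjusted p = 0.032 by edgeR).

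Psmb5 (chromosome 14, 54614119 to 54618022), which cuts after hydrophobic residues, had 353 and 309 TPM in old KO and 255 and 323 TPM in young KO mice, against 261 and 215 TPM in old WT and 179 and 275 TPM in young WT mice. The highest WT libraries overlapped the lowest KO library, and the log2 change was 0.56 ± 0.14 (SE, adjusted p = 0.034 by edgeR). Psmb6 (chromosome 11, 70525367 to 70527858), which cuts after acidic residues and was the most abundant beta subunit of the constitutive ring, had 694 and 669 TPM in old KO and 590 and 673 TPM in young KO mice, against 608 and 581 TPM in old WT and 461 and 626 TPM in young WT mice. Its ranges overlapped, and its log2 change of 0.35 ± 0.14 (SE) did not pass, with an adjusted p of 0.12 by edgeR.

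In the alpha ring, which gates the barrel, Psma7 was the most abundant member. It had 656 and 701 TPM in old KO and 673 and 620 TPM in young KO mice, against 614 and 615 TPM in old WT and 515 and 551 TPM in young WT mice. KO and WT libraries did not overlap, yet its log2 change of 0.38 ± 0.12 (SE) had an adjusted p of 0.069 by edgeR. Psma2 and Psma6 passed at 0.51 and 0.48. Psma8, which in mouse testis takes the place of Psma7, was listed at 24.6 to 36.5 TPM and had a log2 change of 0.18. How reads of such similar genes were split cannot be checked from the summed tables, so its level is uncertain.

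In the cap, Psmc3 was the most abundant ATPase. It had 396 and 367 TPM in old KO and 429 and 410 TPM in young KO mice, against 413 and 354 TPM in old WT and 346 and 441 TPM in young WT mice. The genotypes overlapped fully (log2 change 0.20 ± 0.12, SE). The ubiquitin receptor Psmd4 was the most abundant Psmd member, with 295 and 296 TPM in old KO and 280 and 325 TPM in young KO mice, against 319 and 264 TPM in old WT and 245 and 329 TPM in young WT mice. These ranges overlapped too, and its log2 change was 0.18 ± 0.12 (SE).

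The lowest log2 changes of all members were those of 3 Psmd genes and of the inhibitor: -0.33 for Psmd2, a scaffold of the cap's base, -0.27 for Psmd5, a chaperone of base assembly, -0.23 for Psmf1 and -0.17 for the scaffold Psmd1. None of the 4 passed, with adjusted p of 0.075 for Psmd2, 0.18 for Psmd5, 0.27 for Psmf1 and 0.33 for Psmd1 by edgeR. In each of them all 4 KO mice had less TPM than their WT littermates. Psmf1, known as PI31, had 82.4 and 76.1 TPM in old KO and 82.7 and 87.2 TPM in young KO mice, against 94.9 and 92.0 TPM in old WT and 88.9 and 101 TPM in young WT mice, without overlap.

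Among the alternative caps, Psme1 and Psme2 form the interferon-inducible activator PA28. Psme1 had 1156 and 808 TPM in old KO and 916 and 834 TPM in young KO mice, against 789 and 725 TPM in old WT and 510 and 835 TPM in young WT mice. The higher of the young WT mice reached the KO range, and the log2 change of 0.47 ± 0.15 (SE) had an adjusted p of 0.065 by edgeR. Psme2 rose by 0.59 ± 0.15 (SE, adjusted p = 0.035), with 503 to 736 TPM in KO and 356 to 479 TPM in WT libraries, so that these did not overlap. The ratio of Psme1 to Psme2 was 1.55 ± 0.13 in KO and 1.63 ± 0.20 in WT libraries (SD, n = 4 each). The nuclear activator Psme3 had a log2 change of -0.09 and the large activator Psme4 one of -0.01, at 4.07 to 7.71 TPM. Psme2b, a near-identical copy of Psme2, was at 10.2 to 18.7 TPM, and its level is uncertain for that reason.

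The 4 Psmg genes encode the chaperones that pair up to build the barrel. All 4 were above 0 (3 of 4 after the length correction), and in each of them every KO mouse had more TPM than its WT littermate. Psmg4 (chromosome 13, 34162964 to 34178173) had 92.9 and 82.7 TPM in old KO and 52.9 and 59.2 TPM in young KO mice, against 54.3 and 53.5 TPM in old WT and 34.3 and 43.7 TPM in young WT mice. Young KO mice were level with old WT mice, so the genotypes overlapped over both ages and not within an age. Its log2 change was 0.78 ± 0.20 (SE, adjusted p = 0.035 by edgeR), the largest among members that passed. Psmg2, the most abundant chaperone, had 164 and 177 TPM in old KO and 172 and 164 TPM in young KO mice, against 134 and 138 TPM in old WT and 132 and 142 TPM in young WT mice. These did not overlap, and its log2 change of 0.45 ± 0.13 (SE) had an adjusted p of 0.052.

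In TPM, 7 members had every KO library above every WT library and 2 had every KO library below, against 1.8% and 8.08% of all genes tested. The 7 were Psma2, Psma7, Psmb1, Psmb7, Psmd8, Psme2 and Psmg2, and the 2 were Psmd5 and Psmf1.

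**Figure D2:**
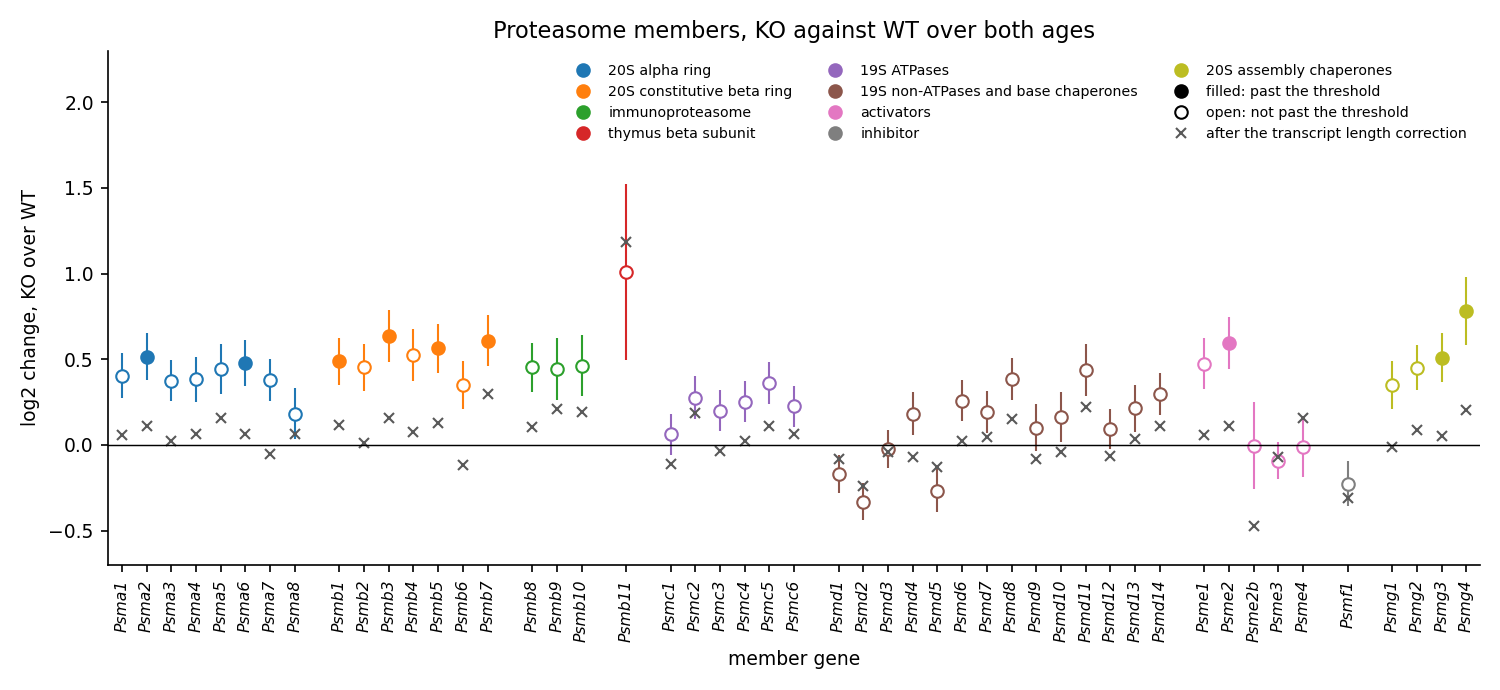
Log2 change of each member, KO over WT over both ages (vertical axis), by subunit group (horizontal axis). Points and bars are the estimate and its SE, filled points passed the threshold, and crosses are the estimates after a transcript length correction. Points of the 2 rings of the barrel and of the assembly chaperones lie above 0, and most crosses lie near 0.

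Transcript length moved with the result. Effective length is the number of positions of a transcript from which a fragment can arise. Across the 49 members the Spearman correlation between effective length and log2 change was -0.70, over genes that share the same 8 libraries and with no test. Core subunits (Psma1 to Psma7 and Psmb1 to Psmb7) have a median effective length of 664 bases and cap subunits one of 1219 bases. Coding genes above 5 TPM showed the same order: their median log2 change was 0.38 below 800 bases (1194 genes), 0.08 from 800 to 1400 bases (1881 genes) and -0.32 from 1400 bases up (6756 genes). Members of the same 3 length classes had medians of 0.48 (16 members), 0.30 (23 members) and -0.06 (10 members).

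A correction was then made for the trend with length, fitted over all genes tested in each library. After it 0 of 49 members passed and 1 had an unadjusted p below 0.05. The members' median log2 change was 0.06, against -0.05 over all genes, of which 3.79% passed in either direction. Coding genes above 5 TPM kept part of the trend, with medians of -0.08, -0.15 and -0.26 from the shortest to the longest class. Members of these classes had medians of 0.07, 0.06 and -0.06. The 9 members that had risen then had log2 changes of 0.05 for Psmg3 to 0.29 for Psmb7. When the trend was taken only from coding genes above 5 TPM, a choice made after seeing the data, 4 members rose: Psmb7 by 0.46 with an adjusted p of 0.028, and Psmc2, Psmd8 and Psmd11, against 4.91% of all genes in either direction. The members' median was then 0.20.

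**Figure D3:**
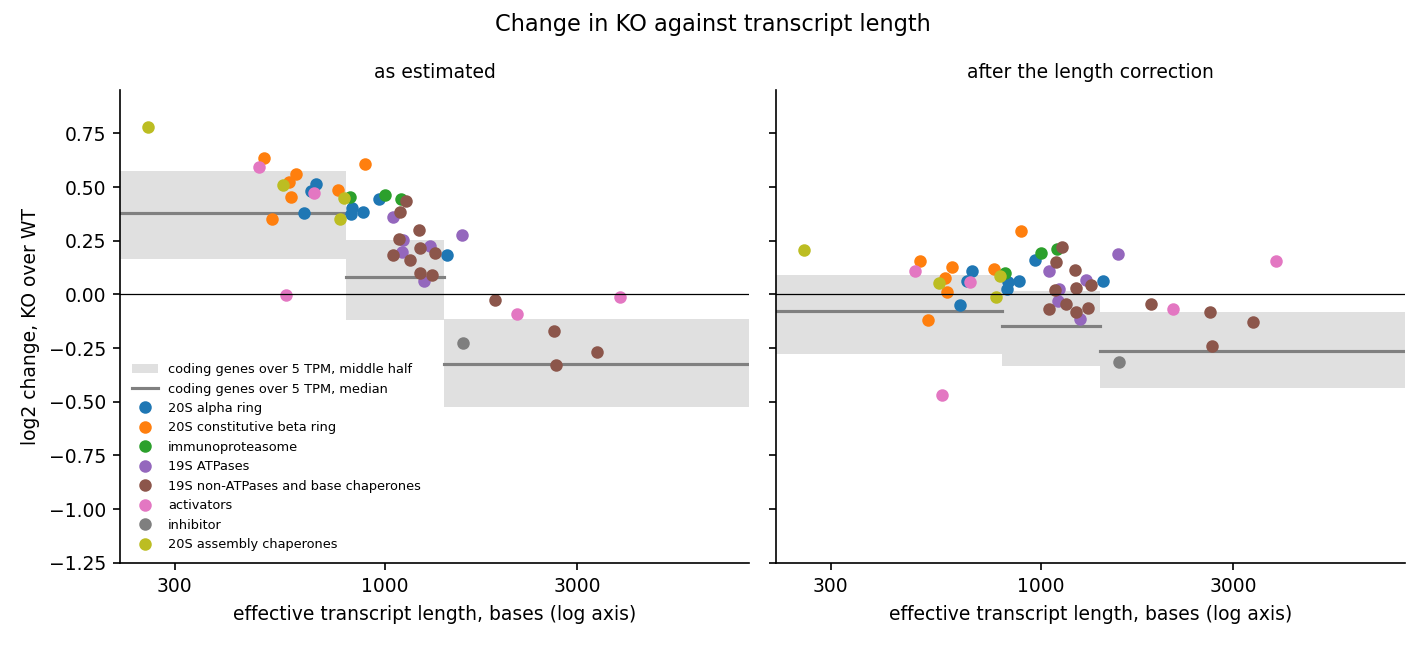
Log2 change in KO over WT (vertical axis) against effective transcript length in bases (horizontal log axis) for each member, as estimated (left) and after the length correction (right). Psmb11, near 0 TPM, is not drawn. Grey lines and bands are the median and the interquartile range of coding genes above 5 TPM in 3 length classes. Values decline with length on the left, where the medians of other genes fall as well (0.38, 0.08 and -0.32). On the right most members lie closer to 0, with medians of 0.07, 0.06 and -0.06 in the 3 length classes (Psmb11 included). The medians of other genes still fall there and lie lower (-0.08, -0.15 and -0.26).

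The call also rested on few mice. With litter as a block in the model, 4 members rose and 0 fell, where 4.55% of all genes passed: Psmb7 (adjusted p = 0.043), Psma2 (0.046), Psmb5 (0.047) and Psmb3 (0.047 by edgeR). The block ended the calls of Psmb1 (0.0501), Psma6 (0.057), Psme2 (0.059), Psmg4 (0.059) and Psmg3 (0.068), while their log2 changes remained between 0.49 and 0.79. Without litter 1, 0 members passed, against 1.01% of all genes. Within batch 1 alone 0 passed, against 0.817%, and within batch 2 alone 2 passed, Psmb7 at 0.59 and Psma6 at 0.51, where 26.8% of all genes passed in either direction. Leaving out any single old mouse, or young WT replicate 1, gave 0 calls, where 0.291% to 2.5% of all genes passed. Leaving out young KO replicate 1 gave 1 call (3.23% of all genes). Leaving out young KO replicate 2 gave 6 that rose and 1 that fell (16.5%), and leaving out young WT replicate 2 gave 22 that rose (17.8%).

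The next question was the make-up of the catalytic sites. Psmb8 (chromosome 17, 34197721 to 34201454) was the most abundant of all 49 members, with 1607 and 1188 TPM in old KO and 958 and 1074 TPM in young KO mice, against 1123 and 959 TPM in old WT and 699 and 1045 TPM in young WT mice. Psmb9 (chromosome 17, 34181987 to 34187764) had 539 and 298 TPM in old KO and 261 and 313 TPM in young KO mice, against 299 and 283 TPM in old WT and 202 and 298 TPM in young WT mice. Psmb10 (chromosome 8, 105935735 to 105938444) had 488 and 272 TPM in old KO and 252 and 319 TPM in young KO mice, against 292 and 251 TPM in old WT and 183 and 321 TPM in young WT mice. Old KO replicate 1 was highest for all 3, and the genotypes overlapped for all 3.

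The log2 changes of the 3 were close to those of the core, at 0.45 for Psmb8, 0.44 for Psmb9 and 0.46 for Psmb10. Of the 3, 0 passed, with adjusted p of 0.066, 0.14 and 0.11 by edgeR. Each unadjusted p was below 0.05, as it was for 29.1% of all genes. Together they made up 62.0% ± 4.24 of the TPM of the 6 catalytic genes in KO and 61.7% ± 1.59 in WT libraries (SD, n = 4 each). In old mice their share was 63.6% ± 3.35 and in young mice 60.1% ± 0.97.

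Ratios to the subunit each replaces were then compared within libraries, which removes the scaling between them but not the length trend. Psmb8 over Psmb5 was 4.55 and 3.85 in old KO and 3.75 and 3.32 in young KO mice, against 4.31 and 4.46 in old WT and 3.91 and 3.80 in young WT mice. Psmb9 over Psmb6 was 0.78 and 0.45 in old KO and 0.44 and 0.46 in young KO mice, against 0.49 and 0.49 in old WT and 0.44 and 0.48 in young WT mice. Psmb10 over Psmb7 was 2.83 and 1.64 in old KO and 1.75 and 1.89 in young KO mice, against 2.38 and 2.23 in old WT and 1.92 and 2.29 in young WT mice. Old KO replicate 1 was far above the other 7 libraries in Psmb9 over Psmb6, and the genotypes overlapped in all 3 ratios.

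Between KO and WT the mean log2 ratios differed by -0.10 for Psmb8 over Psmb5, 0.13 for Psmb9 over Psmb6 and -0.15 for Psmb10 over Psmb7, with p of 0.49, 0.91 and 0.46 by exact two-sided permutation of the 8 libraries. Between old and young they differed by 0.22, 0.24 and 0.19, with exact permutation p of 0.057, 0.14 and 0.34. After adjustment over the 6 tests the lowest p was 0.34. The permutation took no account of litter, age or batch. With 4 libraries against 4, a single shifted ratio could not have passed this adjustment on its own. The KO difference of Psmb9 over Psmb6 was -0.07 without old KO replicate 1, so its sign rests on that mouse. Effective lengths were 815 bases for Psmb8 and 601 for Psmb5, 1096 for Psmb9 and 523 for Psmb6, and 999.5 for Psmb10 and 893 for Psmb7. After the length correction, the log2 change of the first gene of each pair minus that of the second was -0.024, 0.33 and -0.10 between KO and WT, and 0.35, 0.56 and 0.27 between old and young mice, as differences of edgeR estimates with no test.

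**Figure D4:**
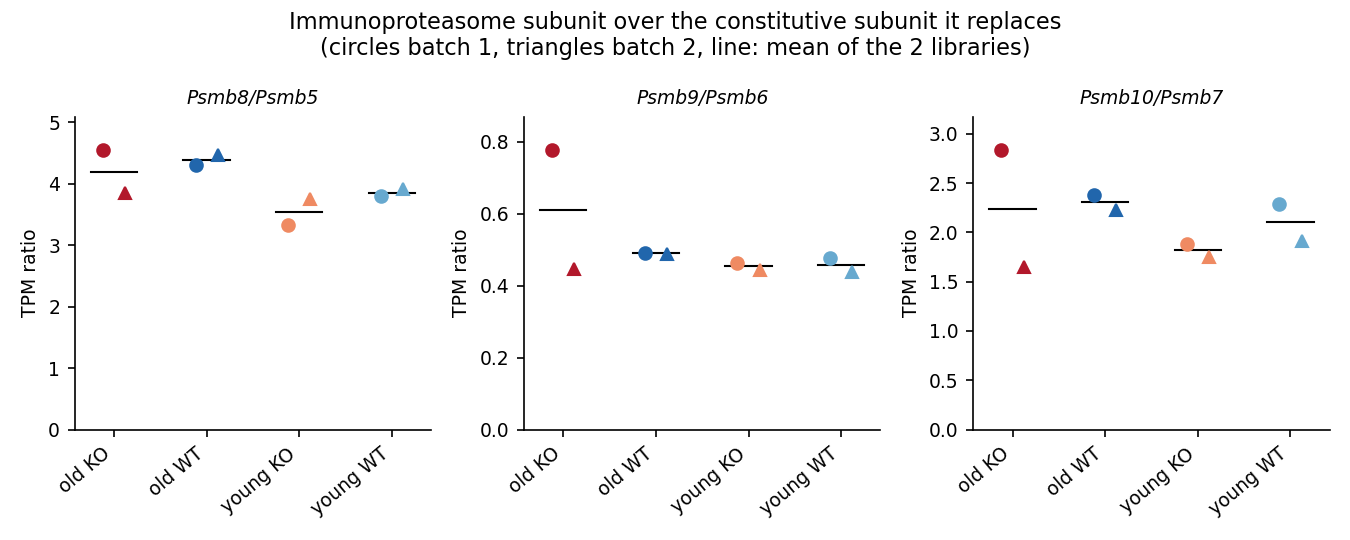
TPM ratio (vertical axes, from 0) of each immunoproteasome subunit to the constitutive subunit it replaces, by library, with old KO, old WT, young KO and young WT from left to right. Circles are batch 1, triangles batch 2 and lines the mean of the 2 mice. Old KO replicate 1 stands at 0.78 in Psmb9 over Psmb6, where the other 7 libraries lie between 0.44 and 0.49.

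The windows of Psmb9 and Tap1, a subunit of the transporter that carries proteasome-made peptides to MHC class I, share 275 of their 300 bases, and the genes are read in opposite directions. Tap1 had 126 and 101 TPM in old KO and 148 and 129 TPM in young KO mice, against 169 and 167 TPM in old WT and 198 and 167 TPM in young WT mice. All KO mice were below all WT mice in Tap1, while every KO mouse was above its WT littermate in Psmb9. Neither log2 change passed, at -0.35 ± 0.14 (SE, adjusted p = 0.14) for Tap1 and 0.44 ± 0.18 (adjusted p = 0.14 by edgeR) for Psmb9. The effective length was 2508 bases for Tap1 and 1096 bases for Psmb9, and after the length correction the log2 changes were -0.27 and 0.21.

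Age was the next comparison. By edgeR over both genotypes, 1 of 49 members fell in old mice and 0 rose, against 9.61% and 4.34% of all genes. The members' median log2 change was 0.03, against 0.15 over all genes, and 27 of 49 were above 0. Cell type markers differed with age as well. In old mice 5 of 6 erythroid markers were lower (sums of 81.4 to 615 TPM in old and 235 to 742 TPM in young libraries), as were 3 of 6 LSK markers (1275 to 1769 TPM in old and 1597 to 2441 TPM in young libraries) and 1 of 6 T and NK cell markers. Of 6 markers of macrophages, monocytes and dendritic cells 2 were higher, with sums of 788 to 1907 TPM in old and 410 to 933 TPM in young libraries. The part of these shifts in the age results was not tested. The member that fell was Psmd2 (chromosome 16, 20651652 to 20663414), whose product holds ubiquitin receptors at the base of the cap. It had 140 and 178 TPM in old KO and 253 and 212 TPM in old WT mice, against 217 and 225 TPM in KO and 322 and 270 TPM in WT among young mice. Each old group was below the young group of its genotype, but old WT overlapped young KO. The log2 change was -0.46 ± 0.11 (SE, adjusted p = 0.029 by edgeR).

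Psmd2 has an effective length of 2660 bases, and coding genes from 1400 bases up had a median log2 change with age of -0.39. The length correction over all genes left it at -0.46 (adjusted p = 0.037), but that correction put the median of all genes at -0.15 and of the members at -0.35, and 1 member then rose and 4 fell, against 17.9% of all genes in either direction. With the trend from coding genes above 5 TPM its log2 change was -0.02 (adjusted p = 0.85). Without litter 1 it was -0.33 (adjusted p = 0.50 by edgeR).

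The other members did not pass with age. Psmd5 had a log2 change of -0.36 and Psmd1 one of -0.30, and Psmg4 had 0.56, with adjusted p of 0.068, 0.077 and 0.074. The 14 core subunits had a median of 0.13 and the 6 ATPases one of -0.07, and 0 of these 20 passed. The sign of both medians depended on the setting: the core median was -0.37 after the length correction, -0.07 in batch 1 alone and 0.30 in batch 2 alone, and the ATPase median was -0.37, -0.21 and 0.05. In TPM, Psma8 alone had every old library above every young one, and no member had the reverse, against 4.73% and 1.41% of all genes tested. Psmb11, the beta subunit of the thymic epithelium, was near 0 in all libraries, at 0.041 to 0.62 TPM. Its log2 change with age was 1.71 ± 0.53 (SE, adjusted p = 0.052 by edgeR). It was the member that rose after the length correction (1.75, adjusted p = 0.035), and in batch 1 alone, where 9.46% of all genes passed, it was at 2.56 (adjusted p = 0.0076). In batch 2 alone Psmb11 was at 1.03 and did not pass. With the non-coding share as covariate its sign turned, to -0.11 over both genotypes. Within WT mice it was 1.13 without and -1.03 with the covariate, and within KO mice it stayed above 0 with it, at 0.41. At levels so near 0 its change with age is uncertain.

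Within one age or one genotype no member passed. In old mice alone, KO over WT gave 0 of 49 calls and a median of 0.38, with 17 members at an unadjusted p below 0.05 (21.2% of all genes) and 9 calls by DESeq2 (13.1% of all genes). The lowest adjusted p was 0.073, for Psmb3 at 0.86 ± 0.21 (SE, edgeR). In young mice alone it gave 0 calls and a median of 0.30, with 4 members at an unadjusted p below 0.05 (9.46% of all genes) and 0 calls by DESeq2 (1.52%). By edgeR 0.65% of all genes were called in old mice and 0.0626% in young mice. Age within KO mice gave 0 calls (0.0861% of all genes), with 5 members at an unadjusted p below 0.05 (24.4%) and 3 calls by DESeq2 (13.9%). Age within WT mice gave 0 calls (0.0861% of all genes), with 1 member at an unadjusted p below 0.05 (13.9%) and 0 calls by DESeq2 (1.54%).

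The difference of the KO effect between old and young mice, tested as an interaction, gave 0 of 49 calls, 0 members at an unadjusted p below 0.05 and 0 calls by DESeq2, against 0.00391%, 1.98% and 0.0391% of all genes. The largest differences among members above 1 TPM were 0.60 ± 0.51 for Psme2b, 0.44 ± 0.30 for Psmb3 and 0.34 ± 0.37 for Psmb9 (SE). These comparisons share libraries, so their values are not independent of each other.

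Of the pathway around the proteasome, 35 genes outside the symbol rule were read from a list of their own, and 3 rose and 2 fell in KO, against 3.19% and 6.78% of all genes. Their median log2 change was -0.22, against 0.10 over all genes. Among those that rose were Rps27a (0.73 ± 0.14, SE, adjusted p = 0.017), which encodes ubiquitin fused to a ribosomal protein, and Uchl5 (0.45 ± 0.11, adjusted p = 0.034 by edgeR), a deubiquitinase of the cap. Rps27a had 446 and 499 TPM in old KO and 316 and 292 TPM in young KO mice, against 277 and 304 TPM in old WT and 213 and 213 TPM in young WT mice. All KO mice were above the WT mice of their age. The polyubiquitin gene Ubb had a log2 change of 0.15 and did not pass.

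The 2 that fell were Nfe2l1, the transcription factor of proteasome genes, and Ngly1, the deglycosylase that acts on it. Nfe2l1 had 12.98 and 15.8 TPM in old KO and 24.7 and 29.4 TPM in young KO mice, against 28.2 and 29.7 TPM in old WT and 58.2 and 30.0 TPM in young WT mice. Within each age both KO mice were below both WT mice, and young WT replicate 1 was far above the rest. The log2 change was -0.68 ± 0.18 (SE, adjusted p = 0.039 by edgeR), and -0.54 ± 0.14 for Ngly1 (adjusted p = 0.034). Nfe2l2, which binds the same element, had 84.0 to 114 TPM in KO and 128 to 146 TPM in WT libraries, without overlap, and a log2 change of -0.30 that did not pass (adjusted p = 0.16 by edgeR). After the length correction 0 of the 35 pathway genes passed in KO over WT, where Nfe2l1 was at -0.51 (adjusted p = 0.11 by edgeR). With the trend from coding genes above 5 TPM, 5 rose and 0 fell, against 4.91% of all genes in either direction. The median of the 35 was then 0.06. With the litter block only Rps27a passed (adjusted p = 0.035 by edgeR). Nfe2l1 was at -0.41 in batch 1 alone (adjusted p = 0.89) and at -1.04 in batch 2 alone (adjusted p = 7.5e-05). Its call ended when any of the 4 old mice was left out, and without young KO replicate 1 and without young WT replicate 1 (adjusted p of 0.10 to 0.14).

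With age, 1 of the 35 rose and 7 fell, against 4.34% and 9.61% of all genes. Rps27a rose by 0.52. Those that fell were Nfe2l1 (-0.80) and the protease Ddi2 that cleaves it (-0.55), the ubiquitin-activating enzyme Uba1 (-0.58), the shuttle factors Ubqln4 (-0.65) and Ubqln1 (-0.48), and the unfoldase Vcp (-0.42) with its cofactor Nploc4 (-0.72). Adjusted p by edgeR ran from 0.024 for Uba1 to 0.040 for Ddi2. The 7 have effective lengths of 2791 to 4254 bases, where coding genes from 1400 bases up had a median of -0.39, and Rps27a has 422 bases. After the length correction 0 of the 35 rose and 7 fell, against 17.9% of all genes in either direction, and 5 of these 7 had fallen without it. Rps27a was then at -0.16 (adjusted p = 0.49), and Vcp (0.054) and Ubqln1 (0.056) no longer passed. With the trend from coding genes above 5 TPM, or with the non-coding share as covariate, 0 of the 35 passed. In old mice Nfe2l1 had 12.98 and 15.8 TPM in KO and 28.2 and 29.7 TPM in WT, against 24.7 and 29.4 TPM in KO and 58.2 and 30.0 TPM in WT among young mice, so that the ages overlapped.

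**Figure D5:**
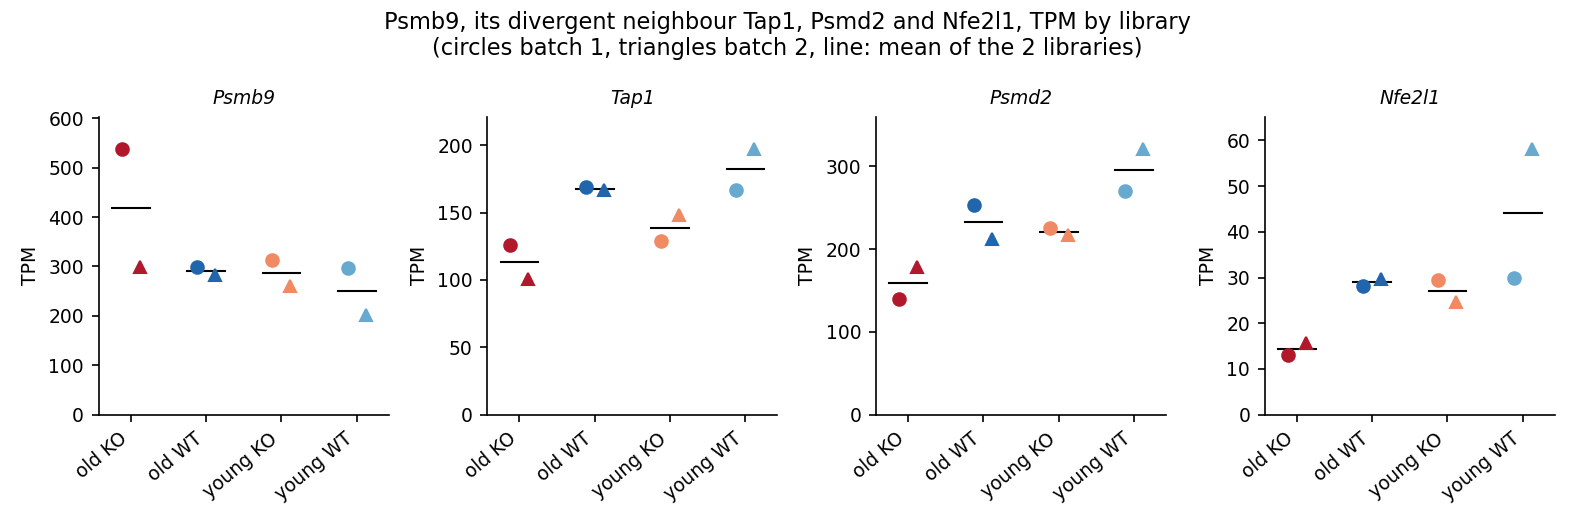
TPM by library (vertical axes, from 0) for Psmb9, its divergent neighbour Tap1, Psmd2 and Nfe2l1, with old KO, old WT, young KO and young WT from left to right. Circles are batch 1, triangles batch 2 and lines the mean of the 2 mice. Psmd2 and Nfe2l1 are lowest in old KO (140 and 178 TPM, 12.98 and 15.8 TPM), Tap1 is below 150 TPM in all KO mice, and Psmb9 is highest in old KO replicate 1.

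Levels within the complex were not equal. In a library the most abundant of the 14 core subunits had 4.23 to 6.06 times the TPM of the least abundant, and the coefficient of variation over the 14 was 39.3% to 44.7%. The core's median TPM was set against that of the cap members other than Psmd5, Psmd9 and Psmd10. The ratio was 1.75 ± 0.29 in KO and 1.41 ± 0.14 in WT libraries (SD, n = 4 each). It was 2.15 and 1.63 in old KO and 1.46 and 1.73 in young KO mice, against 1.44 and 1.60 in old WT and 1.33 and 1.28 in young WT mice. These ranges overlapped. The core has shorter transcripts than the cap, so this ratio moves with the length trend described above.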

How the data were processed

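The deposited tables give, per the file headers, estimated counts, TPM and effective lengths for 115088 transcripts in each of 8 libraries. The submitters' processing notes name kallisto, mm10 and DESeq2, and versions are not given in the sources used here. The depth of each library is its total of estimated counts, 45737972 to 80388500, at which counting error is small beside the difference between mice.

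Transcripts were matched by identifier to GENCODE vM21 (mm10), which paired 114200 of them with 47311 genes, and the other 888 were left out. Values were summed per gene, and summed estimated counts were rounded. Genes kept by filterByExpr (minimum count 10, minimum total 15), 25543 in all and every member among them, were scaled by TMM and tested with edgeR 4.0.16 (quasi-likelihood F test, R 4.3.3), with Benjamini-Hochberg adjustment over all of them and 0.05 as the threshold. Effects over both ages or genotypes came from a model of genotype, age and batch, the others from one of the 4 groups and batch. The test was tried first on simulated data with less spread between libraries than these data have and no litter or batch effects. That trial does not show how the test performs on these mice. With 2 mice a group the p-values rest on the spread between few animals.

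The length correction subtracts, per library, a lowess (span 0.5) of the log2 ratio to the gene's mean on log2 effective length. Other alternatives were DESeq2 1.42.0, limma 3.58.1 on log2(TPM + 1), other scalings and filters, coding transcripts only, the share of non-coding transcripts as a covariate, single batches, left-out libraries and litter as a block. Littermates come from the labels, so the litters pair the mice. Ratios were tested by exact permutation (scipy 1.17.1).

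Per-library values are given for the 6 catalytic genes, the most abundant member of each group, and the 3 highest and 3 lowest log2 changes among members past the threshold. Other named genes were chosen after their values were seen. Named pathway genes are from those past the threshold, with Nfe2l2, Tap1 and Ubb added. The members, the lists and the rules were chosen with earlier results of these data known. Paaf1, on the pathway list, was not analysed here. Some genes of that list are counted but not reported here by name.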

Additional observations from a re-analysis of the deposited data

Results flagged for a closer look

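For each of the 50 genes found by the symbol rule, Psmc3ip included, the 4 KO, 4 WT, 4 old and 4 young libraries were searched for a library whose gap to the nearest other exceeded Dixon's 95% critical share of the range. Of 200 such sets 11 had one, in 10 members, and chance gives about 1 in 20.

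Young WT replicate 1 was the distant library in 5 of them. Among WT libraries it was low for Psmb1 (259 TPM, others 330 to 340 TPM) and Psmb9 (202 TPM, others 283 to 299 TPM) and high for the activator Psme3 (262 TPM, others 189 to 199.8 TPM). Among young libraries it was low for the ATPase Psmc2 (173 TPM, others 209 to 216 TPM) and high for Psme2b (18.7 TPM, others 10.9 to 11.2 TPM).

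Old KO replicate 1 was the distant library in 3, all among old libraries. It was high for Psmb9 (539 TPM, others 283 to 299 TPM) and Psmb10 (488 TPM, others 251 to 292 TPM) and low for the ATPase Psmc1 (249 TPM, others 317 to 328 TPM).

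The other 3 were Psma2 in old KO replicate 2 among KO libraries (482 TPM, others 402 to 408 TPM), the cap subunit Psmd6 in young KO replicate 1 among young libraries (244 TPM, others 204 to 208 TPM), and the cap subunit Psmd13 in young WT replicate 2 among WT libraries (218 TPM, others 168 to 176 TPM).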

How the results depend on the processing

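The 9 calls in KO over WT depended on the setting. The count was 24 with DESeq2 (23 higher, 1 lower), 18 without a filter, 26 with a minimum count of 50 and 17 from coding transcripts only, where 21.1%, 10%, 19.2% and 9.79% of all genes passed. It was 4 with the litter as replicate block and with the length trend from coding genes above 5 TPM, 2 in batch 2 alone, and 0 with the length correction with or without the replicate block, with the non-coding share as covariate, with no batch term, without litter 1 and in batch 1 alone. In the settings that gave 0, 0.094% to 3.79% of all genes passed. Leaving out 1 library gave 0 to 22, against 0.291% to 17.8% of all genes. No member named as called changed sign under any of its 23 alternatives.

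In old mice alone the count of 0 became 9 with DESeq2, 2 without a filter, 1 with a minimum count of 50, 2 with limma on log2(TPM + 1), against 13.1%, 5.95%, 4.56% and 6.08% of all genes, and 0 to 4 with 1 library left out. In young mice, in age within WT and in the interaction it stayed at 0 in every setting run. The replicate block was fitted for the KO comparisons and the interaction, and it changed no other call among members there.

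For age over both genotypes the count of 1 became 4 with DESeq2, 2 without a filter, 4 with a minimum count of 50 and 5 with the length correction, against 26.4%, 15.3%, 13.2% and 17.9% of all genes, and 0 with the covariate, no batch term, limma, coding transcripts only, without litter 1 and in batch 2 alone. With 1 library left out it was 0 to 2. In batch 1 alone 1 member, Psmb11, rose and 0 fell. Psmd2 passed in 6 of its 21 alternatives. Age within KO gave 3 calls with DESeq2, 1 without a filter (13.9% and 6.96% of all genes) and 0 to 1 with 1 library left out.

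The KO difference in log2 Psmb9 over Psmb6 was -0.049 without litter 1 and -0.0558 in batch 2 alone, and -0.0683 to 0.202 with 1 library left out. The age difference of Psmb10 over Psmb7 was -0.0266 without litter 1. The causes of these changes were not tested. At these depths the number of mice, and not counting, limits the precision.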

Other observations

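Some members were carried largely by transcripts that the annotation does not call protein coding. Their share of the gene's TPM was 77.3% ± 0.80 in KO and 85.9% ± 6.71 in WT libraries (SD, n = 4 each) for Psma3, and 63.9% ± 3.15 in KO and 63.9% ± 3.001 in WT libraries for Psmb4, where a retained-intron transcript was the main one for both genes. For Psme4 the share was 39.1% ± 7.13 in KO and 19.5% ± 6.59 in WT libraries, so its summed log2 change is not that of its coding RNA. Of the 34 members with such a transcript, the mean share was higher in KO for 8 and lower for 26. Summed levels of these genes are therefore not levels of coding RNA alone.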
